A study of Phyllotreta striolata with 15 samples.

Results

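Female and male adults of Phyllotreta striolata, the striped flea beetle and a pest of cabbage and related crops, were compared by RNA-seq. The comparison rests on 6 of the 15 libraries of the series, 3 from whole bodies of female adults and 3 from whole bodies of male adults, chosen by the sex given in the sample titles. The remaining 9 libraries, from eggs, larvae and pupae with 3 each, were used for levels through development and in an alternative fit of all 15 libraries. The labels give no strain, age, mating state or treatment for any group, and do not say whether a library came from a single animal or a pool. The 6 adult libraries share a column prefix, which the larval libraries also carry, while eggs and pupae have prefixes of their own.

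In insects, much of the difference between the sexes in whole-body RNA comes from organs that only 1 sex has. The ovary builds eggs and loads them with maternal RNA that the embryo uses before its own genes are active, and yolk protein precursors are made in other tissues, chiefly the fat body, and taken up by the growing egg. The testis uses many genes that are used nowhere else, since sperm have their own motor and packaging proteins, and the male accessory glands secrete abundant seminal proteins. In whole-body RNA, fewer cells of a type and less RNA per cell cannot be told apart. The files do not pair their gene identifiers with names, so no gene below could be assigned to any of these organs, the labelled sexes and tissue could not be checked against marker genes, and genes are described by their size of bias, level and course through development. Identifiers are given for 2 genes higher in each sex, and other genes by their rank.

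The adult libraries held 18015995 to 23367276 counts. Within a sex, Pearson's r of log2 CPM (read counts brought to a common library total and scaled between libraries by TMM, a trimmed mean of ratios) across genes was 0.956 to 0.974 between female libraries and 0.883 to 0.970 between male ones, and between the sexes it was 0.447 to 0.651. Male replicates 1 and 2 were the least alike pair of the same sex. Male replicate 2 was the male library least like the females and male replicate 1 the most like them, and female replicate 2 was the female library least like the males and female replicate 3 the most like them. The 3 female libraries had 9577, 9673 and 9777 genes at 1 CPM or more on library totals, and the 3 male libraries 10501, 10581 and 10617. Every male library had more genes at this level than every female library, with means of 10566 ± 59.4 in males and 9676 ± 100.03 in females (SD, n = 3 each; exact two-sided permutation test, p = 0.1, the smallest that 3 against 3 allows). Among the larval libraries, used below for levels only, larva replicate 1 stood apart from larva replicates 2 and 3 in strongly male-biased genes.

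A Benjamini-Hochberg adjusted p under 0.05 in edgeR's quasi-likelihood test and a fold of at least 2 were reached by 3767 of 10986 genes (34.3%). Females had the higher level in 1518 of them (13.8% of those tested) and males in 2249 (20.5%). In 3760 of these 3767 genes the 3 libraries of one sex all lay above the 3 of the other. Such separation was common, since it held for 61.5% of all genes tested. A further 1410 genes passed the adjusted p at less than 2-fold, so that 47.1% passed it at any fold. With scaling by library size alone, 2175 genes were called for females and 1813 for males, so the share of calls that were higher in females was 40.3% with TMM and 54.5% with library size alone. The median log2 change of all genes was -0.15 with TMM and 0.11 with library size alone, and small differences therefore have no firm sign.

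The sexes differed in how large their biases were. Of the genes higher in females, 1077 were higher by 2 to 4-fold, 321 by 4 to 16-fold, 71 by 16-fold up to a log2 change of 8, and 27 by a log2 change of 8 or more, and 22 had no count in any male library. Of the genes higher in males, the same classes held 942, 334, 411, 236 and 326 genes. The 2 to 4-fold class took 70.9% of the female-biased genes and 41.9% of the male-biased ones. Counting genes with no count in the other sex by their lower bound, 118 genes (1.07% of those tested) were at least 16-fold higher in females and 973 (8.86%) at least 16-fold higher in males. These counts moved little with scaling, to 133 and 951 with library size alone. The bound is the mean in the higher sex over 3 counts summed over the libraries of the other sex, and it covers counting error only.

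**Figure D1:**
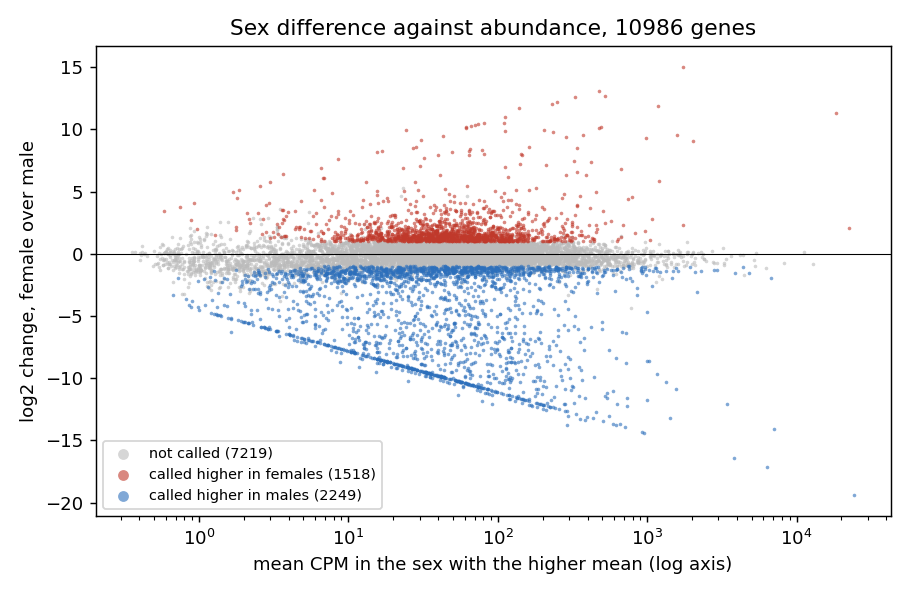
Each point is 1 gene, with its mean CPM in the sex with the higher mean on the x axis (log scale) and its log2 change, female over male, on the y axis. Genes with no count in 1 sex are placed at their lower bound, which forms the straight lower edge of the 2249 genes higher in males, while most of the 1518 genes higher in females lie close to the line of no difference.

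Bias of both directions was found at every level of expression. Among genes with a mean of 10 to 100 CPM in the sex with the higher fitted level, 17.2% of 6360 were female-biased and 20.3% male-biased. Among the 142 genes at 1000 CPM or more, 10 were female-biased and 33 male-biased. The share of male-biased genes that reached 16-fold ran from 33.3% at 1000 CPM or more to 46.0% at 100 to 1000 CPM. Among female-biased genes this share was 4.77% of 1091 genes at 10 to 100 CPM, 14.1% of 312 at 100 to 1000 CPM and 6 of 10 genes at 1000 CPM or more, and below 10 CPM it was 15 of 100 genes at 1 to 10 CPM and 1 of 5 genes under 1 CPM.

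On the per-length scale, the authors' mean TPM, 5 of the 10 most abundant transcripts of males were male-biased, and these 10 made up 11.6% of all male TPM. In females 2 of the 10 most abundant transcripts were female-biased, and the other 8 were not called. Of the 100 most abundant transcripts, 24 in males were male-biased, and 6 in females were female-biased with 5 more that were higher in males. All genes called higher in males together held 32.4% of male TPM and 6.93% of female TPM. Those called higher in females held 13.6% of female TPM and 2.37% of male TPM. These sums use the values by which the genes were chosen and describe size only.

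The most abundant female-biased gene, CAG9855084.1, was at 21545, 21044 and 24624 CPM in the 3 female libraries and at 6732, 4561 and 4746 CPM in the 3 male libraries. It was among the most abundant RNAs of both sexes, and the female libraries were close to each other. Its log2 change was 2.07 ± 0.23 (SE; adjusted p = 0.000675, edgeR), and with all 15 libraries in the fit it was 1.99 at an adjusted p of 0.0568, so the call did not hold there. In the authors' mean TPM it stood at 7517 in females, 1300 in males, 289 in larvae, 11.9 in pupae and 0.0307 in eggs. The larval libraries differed widely, at 203, 677 and 2686 CPM on library totals.

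The second, CAG9855083.1, was at 29143, 18311 and 7925 CPM in females and at 5.27, 11.9 and 4.93 CPM in males. The female libraries were far apart here, with female replicate 3 at the bottom, and still stood far above every male library. Its log2 change was 11.3 ± 0.83 (SE; adjusted p = 0.000208, edgeR). Outside adult females it was near 0, at 0.0453 TPM in eggs, 0.162 in larvae and 0.0575 in pupae, against 6347 TPM in females and 1.78 in males. The identifiers are consecutive, and whether the sequences are alike enough to share reads was not tested. Both genes were about equally long, 3.36 and 3.38 times the median relative length of the genes tested, as read from the ratio of counts to TPM.

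Next in abundance came 6 genes at 1176 to 2021 CPM in females, with log2 changes of 2.31 to 11.9 among the 5 with counts in males. The fifth in rank had no count in any male library and 1482, 2854 and 920 CPM in females, at least 32708-fold higher (adjusted p = 0.000391, edgeR). In eggs, it reached 5337 TPM, above its 1842 TPM in females. Eggs held 4 others of the 6 at 150 to 691 TPM, and the sixth in rank at 0.0526 TPM. The 8 most abundant female-biased genes thus fell into 5 that were high in eggs and 3 that were near 0 there.

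The most abundant gene of males, CAG9854698.1, was at 18952, 31651 and 22595 CPM in the 3 male libraries and at 0, 0.0828 and 0 CPM in the females. The 3 female libraries together held 2 counts, which gives a male to female ratio of 816551 (95% Poisson interval, exact and for counting alone, 226045 to 6742528; adjusted p = 0.0001, edgeR). In TPM it reached 44005 in males and was at 0.556 in eggs, 0 in larvae and 0.118 in pupae. The second, CAG9862378.1, was at 6111, 8487 and 6521 CPM in males and at 0, 0.621 and 0.589 CPM in females. Its log2 change was -14.1 ± 1.11 (SE; adjusted p = 0.000249, edgeR), and it too was near 0 outside adult males, with 10005 TPM there and 0.0807 to 0.479 TPM in eggs, larvae and pupae. Neither gene overlapped between the sexes, and both were short, at 0.467 and 0.594 times the median relative length.

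Another pair among the 8 most abundant male-biased genes had no count in any female library. The fourth in rank had 3661, 8976 and 6267 CPM in the 3 male libraries and was at least 140583-fold higher (adjusted p = 0.00022, edgeR). The eighth had 2887, 4938 and 3647 CPM and a lower bound of 85319-fold (adjusted p = 0.000144, edgeR). Both were almost limited to adult males in TPM, at 12639 and 11964 there and at no more than 4.33 in eggs, larvae and pupae. The other 4 of the 8 were abundant in both sexes and higher in males by 2.12 to 3.79-fold. With all 15 libraries in the fit, the third and the seventh in rank were not called (adjusted p = 0.0528 and 0.335, edgeR). The sixth, with a log2 change of -1.08 ± 0.24 (SE), fell under 2-fold with library size alone (-0.82), without female replicate 1 (-0.93) and without female replicate 2 (-0.98). Among these 4, the seventh was the least steady, at 962, 768 and 2192 CPM in females and 3070, 5332 and 3219 CPM in males (log2 change -1.57 ± 0.45, SE; adjusted p = 0.0288, edgeR). It lost its call without female replicate 1 (adjusted p = 0.0938), female replicate 2 (0.0615), male replicate 2 (0.0702) or male replicate 3 (0.0597), and with a replicate block (0.0668), in edgeR.

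**Figure D2:**
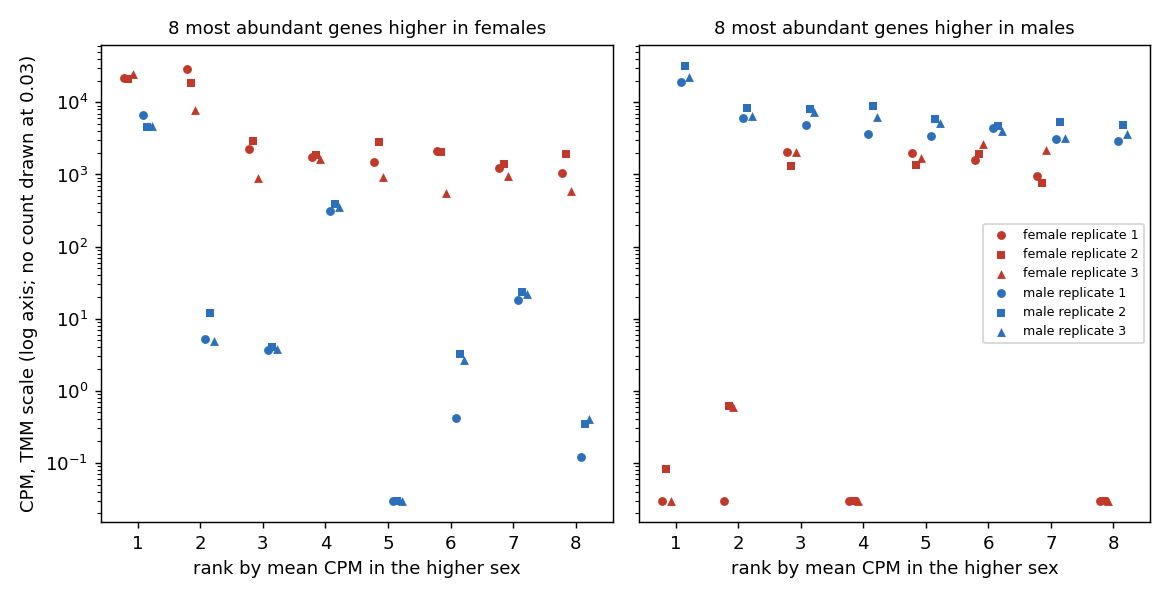
CPM on the TMM scale (log axis, with no count drawn at 0.03) in each of the 6 adult libraries for the 8 most abundant genes higher in females (left) and in males (right), ranked by mean CPM in the higher sex, with 1 point a library. Genes with nearly no RNA in the other sex stand beside genes that are abundant in both sexes.

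The genes with the largest changes were of the same kinds. After the female-biased gene with no male count described above, the next largest change in females was in a gene at 653, 636 and 140 CPM in the 3 female libraries, with no count in males, a lower bound of 8894-fold and 0.0638 TPM in eggs (adjusted p = 0.00142, edgeR). The one after it was at 424, 425 and 139 CPM in females, again with no count in males, but reached 714 TPM in eggs (adjusted p = 0.000598, edgeR). Female replicate 3 was the lowest female library in both. In males the 3 largest changes were those of CAG9854698.1 and of the pair with no count in females.

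The classes below a log2 change of 8 were led by genes that both sexes had. The most abundant gene with a 2 to 4-fold female bias was at 1094, 1128 and 918 CPM in females and at 471, 496 and 465 CPM in males (log2 change 1.13 ± 0.16, SE; adjusted p = 0.00178, edgeR). In the 4 to 16-fold class of males the leading gene was at 1363, 2895 and 2191 CPM in males and at 253, 242 and 255 CPM in females (log2 change -3.10 ± 0.30, SE; adjusted p = 0.000439, edgeR). In both genes the libraries of the lower sex were close together. The leading gene of the male class from 16-fold up to a log2 change of 8 was at 608, 1262 and 1106 CPM in males and at 53.0, 28.4 and 34.0 CPM in females (log2 change -4.69 ± 0.41, SE; adjusted p = 0.000291, edgeR). It reached 499 TPM in pupae, and on library totals it was at 328 CPM in larva replicate 1 and at 9.16 and 25.4 CPM in larva replicates 2 and 3. The leading gene of the same class in females was at 1228, 1396 and 959 CPM in females and at 18.2, 23.4 and 21.8 CPM in males (log2 change 5.82 ± 0.25, SE).

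The most variable biased genes were found in both directions. Among female-biased genes with a mean of at least 100 CPM, the gene with the widest spread was at 428, 374 and 51.5 CPM in the 3 females, an 8.30-fold range with female replicate 3 lowest, and at 0, 0 and 1.14 CPM in males (log2 change 9.40 ± 1.59, SE; adjusted p = 0.00402, edgeR). Among male-biased ones it was at 255, 87.9 and 10.8 CPM in the 3 males, a 23.7-fold range with male replicate 3 lowest. That gene had an adjusted p of 0.0449 (edgeR), and its call was lost in each of 5 fits that left out a single library, which were all but the one without male replicate 3, and also with all 15 libraries (adjusted p = 0.055), library size alone (0.0543) and the replicate block (0.126). The second most variable male-biased gene, with an adjusted p of 0.0493, lost its call without female replicate 2, female replicate 3, male replicate 1 or male replicate 2, and with all 15 libraries (adjusted p = 0.111), library size alone (0.0626), the replicate block (0.0988), no filter on low counts (0.0525) and DESeq2's size factors (0.0503).

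Among the 7219 genes that were not called, 2864 (39.7%) had a 95% interval of the log2 change that lay wholly within 2-fold in either direction. For the rest, the interval reached past 2-fold in at least 1 direction. By mean CPM over the 6 libraries, the most abundant uncalled gene was at 10878, 10244 and 12335 CPM in females and 11109, 8986 and 10396 CPM in males, with overlapping groups and a log2 change of 0.13 ± 0.19 (SE). The second was at 4278, 2885 and 14691 CPM in females and 11837, 16787 and 9862 CPM in males. There female replicate 3 stood apart from the other females, and without it the gene was called higher in males, with a log2 change of -1.71 (adjusted p = 0.00543, edgeR).

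Within a sex, the libraries kept a common order in the genes biased toward that sex. In male libraries, the median CPM of the 973 genes at least 16-fold higher in males was 26.4, 59.6 and 40.4 in replicates 1, 2 and 3. Male replicate 2 was the highest of the 3 males in 92.2% of these genes and male replicate 1 the lowest in 94.2%, against 52.6% and 48.1% over all genes tested. The 2 to 4-fold male-biased genes had the same order, with male replicate 2 highest in 77.1%. The 1077 genes 2 to 4-fold higher in females did not show it in male libraries. Their medians there were 17.9, 18.6 and 17.8 CPM in replicates 1, 2 and 3, and male replicate 2 was the highest in 42.6%. With library size alone, male replicate 2 was the highest in 88.5% of the 973 genes.

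In female libraries, the median CPM of the 118 genes at least 16-fold higher in females was 65.2, 95.1 and 43.9 in replicates 1, 2 and 3. Female replicate 2 was the highest in 81.4% of these genes and female replicate 3 the lowest in 92.4%, against 37.7% and 38.8% over all genes. In the 942 genes that were 2 to 4-fold higher in males, female replicate 3 was instead the highest female in 69.5%. All genes higher in females took 14.4% of the counts of female replicate 3, against 19.9% and 21.5% in female replicates 1 and 2. All genes higher in males took 20.2%, 32.0% and 26.4% of the counts of male replicates 1, 2 and 3. The female libraries thus differed along genes biased in either direction, and the male libraries along the male-biased genes. No label gives a property of these libraries beyond sex and number. Without female replicate 3, 1938 genes were higher in females and 2615 in males.

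Gene length went with the size of bias. Genes with no count in males had a median relative length of 0.547 and genes with no count in females one of 0.529, on a scale where the median of all genes tested is 1. Genes biased 2 to 4-fold were at 1.10 when higher in females and at 1.04 when higher in males. From class to class the length of male-biased genes went from 1.04 to 0.951, 0.849, 0.766 and 0.529. At the same TPM, a shorter gene yields fewer counts and is more easily left at 0. The part of that in the order of the classes was not tested.

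The level of each class in eggs, larvae and pupae was taken from the authors' mean TPM, which has no spread over libraries. The larval mean includes larva replicate 1, so larval shares of the size classes and of the genes sorted by stage are given with and without it. Larval TPM of single genes and the grouping of genes by larval level include it. The 326 genes with no count in females reached 1 CPM on library totals in 82.5% of cases in larva replicate 1 and in 0.920% and 0.613% in larva replicates 2 and 3. For the 236 genes with a log2 change of 8 or more the values were 89.0%, 3.81% and 6.78%.

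The larger the male bias, the fewer genes were on in eggs, while in pupae the shares were near or below that of all genes. A mean of 1 TPM or more in eggs was found for 76.1% of the genes with a 2 to 4-fold male bias, and for 59.9%, 33.3% and 10.2% as the bias went up, against 80.0% of all genes tested. The genes with no count in females, whose bias is known only as a lower bound, had a share of 3.68%. With a limit of 5 TPM the shares of these classes, in the same order, were 46.0%, 29.3%, 8.27%, 0.847% and 0.920%. In pupae the shares at 1 TPM were 96.5%, 88.6%, 89.3%, 93.2% and 81.3%, against 93.3% of all genes. The median pupal TPM of the class with a log2 change of 8 or more was 37.8, against 97.9 in males, 0.126 in females and 0.164 in eggs. In larvae 87.7% of that class reached 1 TPM, but by mean CPM of larva replicates 2 and 3 alone only 4.66% reached 1 CPM.

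In female-biased genes the shares on in eggs and in pupae both went down with the size of bias, and further in pupae. A mean of 1 TPM or more in eggs was found for all 1077 genes of the 2 to 4-fold class, and for 94.7%, 90.1% and 74.1% as the bias went up, against 80.0% of all genes. The genes with no count in males, whose bias is known only as a lower bound, had a share of 86.4%. In pupae the shares went from 99.7% to 93.8%, 69.0% and 22.2%, against 93.3% of all genes. The genes with no count in males were at 18.2% there. The pupal shares of 99.7% and 93.8% lay nearer to the share of all genes than the egg shares of the same classes did. In the classes with larger bias, and in genes with no count in males, the egg share was the nearer one. In the class with a log2 change of 8 or more the median was 210 TPM in females, 21.6 in eggs, 0.235 in pupae and 0.249 in males. In 704 of the 1518 female-biased genes the egg mean was at least as high as the female mean, and 561 of these were in the 2 to 4-fold class. How often this held over all genes tested was not counted, so the number is a description only.

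**Figure D3:**
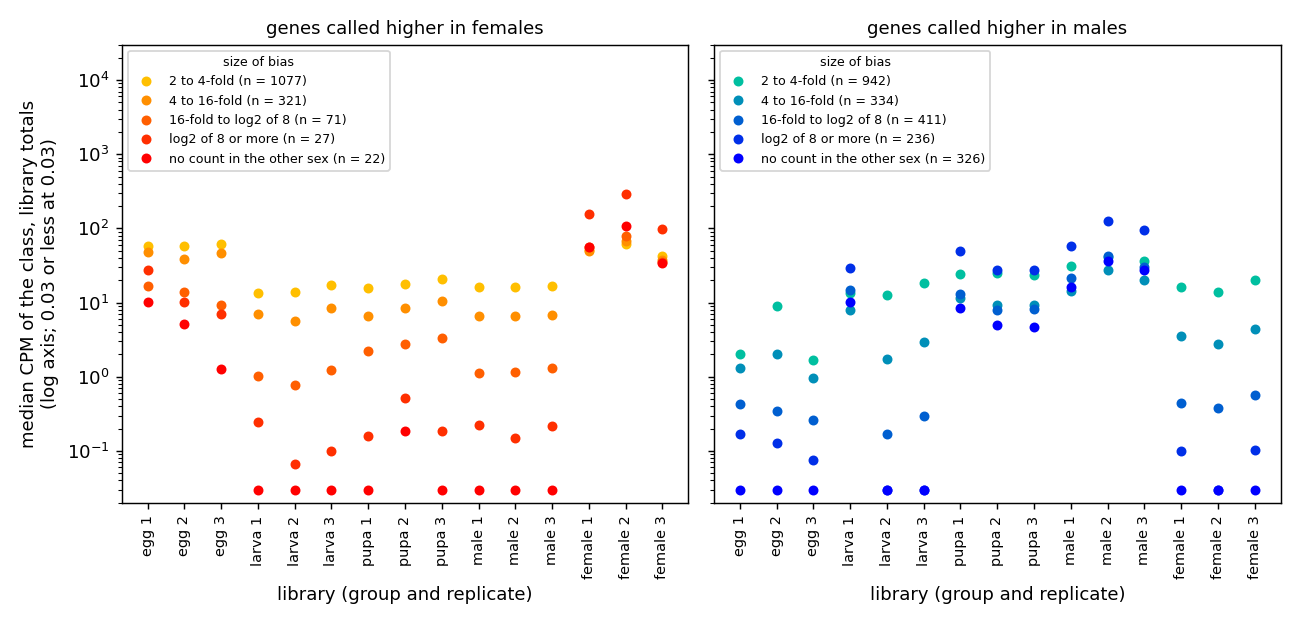
Median CPM on library totals (log axis, with 0.03 or less drawn at 0.03) of each size class of bias in each of the 15 libraries, for genes called higher in females (left) and in males (right), with 1 point a class and library. Each of the 5 female-biased classes is higher in the 3 egg libraries than in the 3 pupal ones. The male-biased classes from 16-fold up, and that with no count in females, are high in pupae and in larva replicate 1. The same classes are low in eggs and in larva replicates 2 and 3.

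All genes tested were also sorted by the stage before adulthood with the highest mean TPM. The sorting uses none of the adult libraries, but only genes that passed the count filter in those libraries were tested. Of the 4700 genes highest in eggs, 27.6% were higher in females and 3.30% in males, against 13.8% and 20.5% of all genes. Of the 3906 genes highest in pupae, 3.64% were higher in females and 38.5% in males. Where eggs were at least 5 times above the next stage, 61.9% of 732 genes were higher in females, and where pupae were, 51.9% of 967 genes were higher in males. Of the 2144 genes highest in larvae 22.6% were male-biased, and of the 673 with larvae at least 5 times above the next stage 14.0%. By mean CPM without larva replicate 1, male-biased genes were 15.9% of those highest in larvae, 15.4% of those with larvae 5 times above the next stage and 70.4% of 1260 genes with pupae 5 times above it. Genes under 1 TPM in all 3 stages numbered 236, of which 44.5% were male-biased and 8.05% female-biased. By mean CPM without larva replicate 1, 360 genes were under 1 CPM in all 3 stages, with 51.9% male-biased and 6.11% female-biased. Such genes were tested only because of their adult counts, so these shares do not describe all genes that are low before adulthood.

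**Figure D4:**
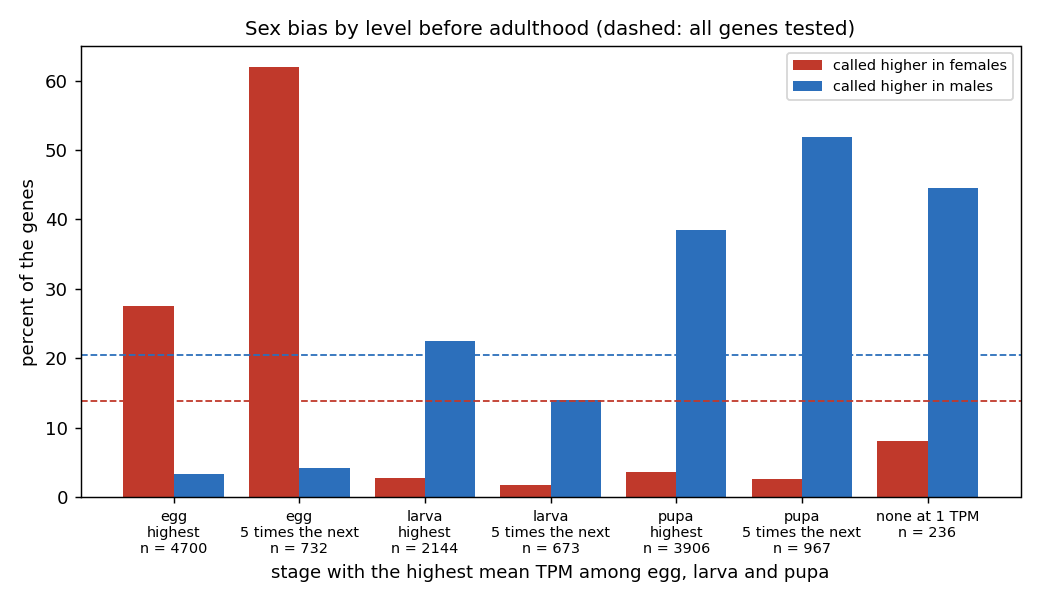
Percent of genes called higher in females or in males (y axis) among genes sorted by the stage with the highest mean TPM among eggs, larvae and pupae (x axis), also for genes where that stage was at least 5 times the next. Dashed lines give the shares of all genes tested, 13.8% for females and 20.5% for males, and the egg bars lie above the female line and the pupal bars above the male line.

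Of the 973 genes at least 16-fold higher in males, 852 (87.6%) were at 1 TPM or more in pupae and 121 were under it, and of all genes tested 93.3% were at 1 TPM or more there. The 852 genes held 9.52% of male TPM at a median of 50.8 TPM, and in pupae they had a median of 19.6 TPM. The 121 genes were fewer but held 8.63% of male TPM, with CAG9854698.1 alone at 44005 TPM. Of the 17 genes of the 973 above 1000 TPM in males, 9 were among the 121. In larva replicate 1, 95.1% of the 852 genes reached 1 CPM and 28.9% of the 121 did. The spread over male libraries differed as well, with a median ratio of male replicate 2 to male replicate 1 of 2.29 in the 852 genes and 1.69 in the 121.

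Among the 118 genes at least 16-fold higher in females, 101 (85.6%) were at 1 TPM or more in eggs and 17 were under it, against 80.0% of all genes tested at 1 TPM or more. The 101 genes held 2.38% of female TPM and the 17 held 1.08%, most of it CAG9855083.1 at 6347 TPM. In the 17 genes the median CPM was 126 and 108 in female replicates 1 and 2 and 42.6 in female replicate 3. In the 101 genes it was 59.2, 91.05 and 44.3. Female replicate 3 was thus low in both. The median ratio of female replicate 2 to female replicate 1 was 1.40 in the 101 genes and 0.949 in the 17. The split at 1 TPM was made after the values were seen, and no test was run on it.

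**Figure D5:**
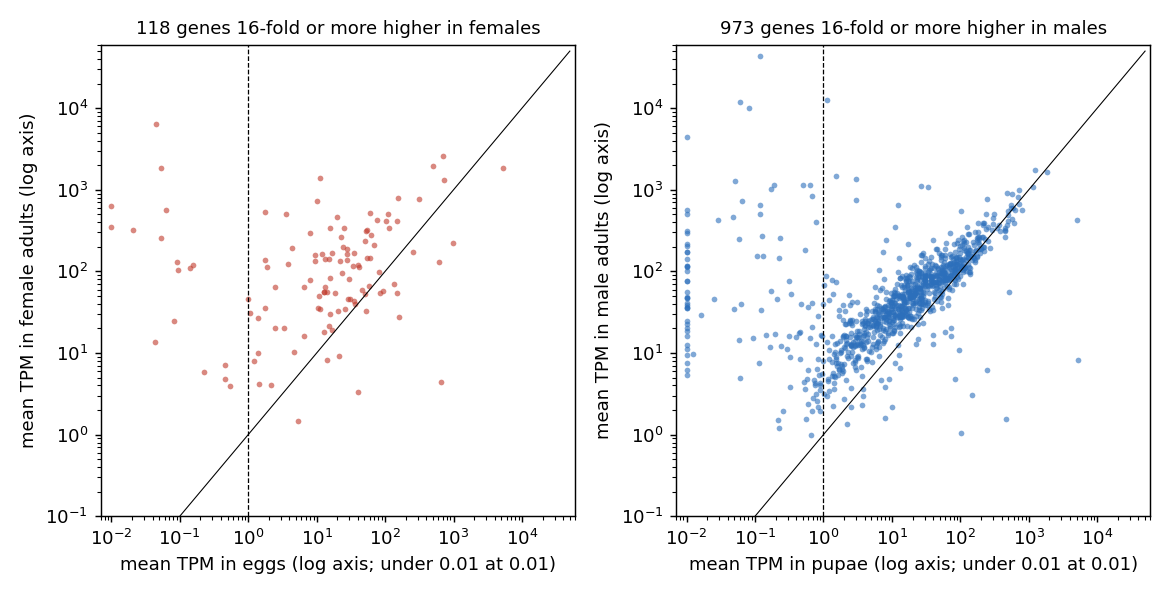
Authors' mean TPM in female adults against eggs for the 118 genes at least 16-fold higher in females (left), and in male adults against pupae for the 973 genes at least 16-fold higher in males (right), both axes on a log scale, values under 0.01 drawn at 0.01, dashed line at 1 TPM and solid line at equal TPM. Most male-biased genes form a band just above the line of equal level in pupae, and 121 lie left of the dashed line, CAG9854698.1 at the top.

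The authors' deposited table of stage- and sex-specific genes lists 175 genes for male adults, of which 167 were tested and 164 were called higher in males. None of the 164 was in the 2 to 4-fold class, and 66 had no count in females. Of the 87 genes listed for female adults, 85 were tested and 77 were called higher in females, 10 of them with no count in males. Since these lists were drawn up from the libraries of this series, as genes specific to a stage or sex, they give no independent support for a direction. The same holds for a split by level in a stage. The male list held 150 of the 973 genes at least 16-fold higher in males, 87 of the 121 that were under 1 TPM in pupae and 63 of the 852 that were not. Of the authors' 160 egg genes, 120 were tested here, with 24 higher in females and 17 in males, shares of 20.0% and 14.2% against 13.8% and 20.5% of all genes. Of their 481 pupal genes, 322 were tested, with 7 higher in females and 66 in males, or 2.17% and 20.5%.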

How the data were processed

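RNA-seq of whole bodies was used, with group and replicate taken from sample titles. The authors deposited read counts per gene, not normalized, for 11862 genes, and fastp, HISAT2 and featureCounts are the tools in the submitters' processing notes. The genome build, versions and strand setting were not given in the sources used here. They also deposited TPM averaged over each group. The female to male ratio of the deposited TPM followed that of the counts within 5% for 99.5% of 9545 genes with at least 1 CPM in both sexes, after centring on the median. The third deposited table holds gene identifiers alone. Here TPM was used for levels only, and relative length is the ratio of CPM to TPM, as a median over those of the 5 groups with at least 1 CPM.

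The 6 adult libraries were fitted alone. Counts were filtered with filterByExpr, which dropped 876 genes, scaled by TMM and tested with edgeR 4.0.16 (R 4.3.3, robust quasi-likelihood fit, Benjamini-Hochberg adjustment over 10986 genes). DESeq2 1.42.0, other scalings, filters and fold limits, all 15 libraries, a replicate block and leaving out each library were tried. The SE is the absolute log2 change over the square root of F. The fit was tested on simulated data. The series calls replicates biological, but no label says how they were collected, so the spread behind each p-value may be technical.

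The genes described were, for each sex among called genes with separate libraries, the 8 most abundant, the 3 with the largest change, the most abundant of each size class and the 2 most variable, plus 2 abundant uncalled genes, 27 in all. Without gene names, identifiers are printed for 2 genes a direction. The libraries compared and the classes were chosen with earlier results of these data known, and lists of named gene families could not be applied.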

Additional observations from a re-analysis of the deposited data

How the results depend on the processing

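Counts of biased genes, of strongly biased genes and of genes detected were recomputed, and 61 of the values stayed within 1.5 times the reported value or kept their direction. The other 3 came from the fold limit. With no fold minimum 2513 genes were higher in females, and when a fold above 2 was itself tested with glmTreat, 726 were higher in females and 1333 in males. Leaving out single libraries gave 1318 to 1938 genes higher in females, 1759 to 2615 higher in males, 106 to 137 at least 16-fold higher in females and 954 to 1011 at least 16-fold higher in males. The difference in genes detected, female minus male, ran from -941 to -841 in those fits. DESeq2 called 1529 and 2602 genes and shared 1491 and 2249 with edgeR, and all 15 libraries in 1 fit gave 1342 and 1820, with 1322 and 1690 shared.

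Replicate numbers are shared between the sexes. Deviations of same-numbered libraries from their group means correlated at -0.0174, -0.195 and -0.205, and those of female replicate 2 and male replicate 3 at 0.205. Deviations from a mean of 3 libraries are tied to each other, so these values cannot say whether the numbers pair the libraries. With a replicate block 1397 genes were higher in females and 1817 in males. For the genes described singly, 343 alternative values kept the call or the lack of one, 34 lost the call and 1 gained it, and none changed sign. The 343 include 1 value per gene without the fold minimum, which repeats the main fit and could not differ. Shares of a class on in a stage were counted as kept for 36 values and as moved for 34, mostly under a limit of 5 TPM, with which all of these shares that moved were lower. A smaller step counted as moved in a larger class. With 1077 female-biased genes, 99.7% in pupae against 98.8% by mean CPM was a move. With 27, 14.8% in larvae against 7.41% at 5 TPM was not. These labels do not measure spread over libraries. At this depth a gene with no count in 1 sex is known only to lie under the limit that 3 counts set.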

Other observations

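Genes grouped by their level in eggs differed in how often they were biased in adults. Of 335 genes at 0 TPM in eggs, 62.1% were higher in male adults and 0.597% in female adults, and 53.7% were at least 16-fold higher in males. Of 1866 genes above 0 and up to 1 TPM, 51.0% were higher in males and 1.72% in females. Of 2006 genes at 1 to 10 TPM in eggs, 34.6% were higher in males and 5.68% in females. Of 5225 genes at 10 to 100 TPM, 6.58% were higher in males and 20.6% in females, and of the 1554 genes at 100 TPM or more 3.28% and 18.8%. The share of genes at least 16-fold higher in females changed little over these last 3 levels, at 1.25%, 1.13% and 1.09%. Male-biased shares were also highest at 0 TPM in the other stages. From 0 TPM upward over the same 5 levels they were 57.0%, 29.2%, 29.7%, 14.0% and 12.0% by larval level, whose mean includes larva replicate 1. By pupal level they were 47.0%, 23.6%, 24.5%, 17.8% and 21.3%. Strong female bias was also most frequent at 0 TPM in these stages. At 0 TPM, 15.6% of 135 genes by larval level and 10.8% of 83 by pupal level were at least 16-fold higher in females. Of all genes tested the share was 1.07%. Only genes that passed the count filter in the adult libraries were tested, so a gene at 0 TPM in a stage entered through its adult counts. How far this raised the biased shares at 0 TPM was not tested. These are descriptions of genes grouped by the authors' mean TPM.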
